A study of Mus musculus and Homo sapiens with 22 samples.

Results

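The fibroblast growth factor (FGF) to ERK pathway was followed through 10 mouse genes, taken from a list of names by their role in the pathway, with earlier results of these data known and no threshold on a measured value: the ligands Fgf4 and Fgf5, the receptors Fgfr1 and Fgfr2, the ERK phosphatases Dusp6 and Dusp4, the Sprouty inhibitors Spry2 and Spry4, and the ETS transcription factors Etv4 and Etv5. All 10 were among the 56196 genes listed in the RNA-seq count tables, and 9 passed the filter on low counts. FGF ligands bind receptor tyrosine kinases at the cell surface, which switch on RAS, RAF, MEK and the kinase ERK. ERK signalling turns on its own inhibitors, among them Sprouty proteins and dual-specificity phosphatases, and the ETS factors Etv4 and Etv5 are commonly read as its targets. In mouse embryonic stem cells (mESCs), Fgf4 made by the cells themselves drives ERK and readies them to leave the pluripotent state, and Fgf5 marks the epiblast-like cells that follow.

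RNA-seq libraries were made from mESCs of 2 genotypes, wild type (WT) and Mettl3 knockout (KO), with 3 libraries each. Mettl3 is the main enzyme that places N6-methyladenosine (m6A) on mRNA. Sites of m6A came from miCLIP2, an antibody crosslinking method that maps the modified base, in WT mESCs, in purchased mouse heart poly(A)+ RNA and in HEK293T cells, a human embryonic kidney line. Sites were predicted by the classifier m6Aboost and came as a single list for each material or input, so a site has no spread between replicates.

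Both mESC lines came from an earlier publication and were grown under FBS/LIF conditions. Neither group received a treatment, and whether a genotype was 1 clone was not given in the sources used here. The design text speaks of 3 biological replicates per condition, and nothing further tells how the cultures were separated, so the p-values measure the spread between these libraries. The heart RNA was used at 1 ug and at 3 lower inputs, which the sample titles give in ug but the lists and the study's methods in ng; ng is used here. In bulk RNA, fewer cells that express a gene and less RNA per cell cannot be told apart.

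The libraries held 22746733 to 27254245 reads assigned to genes. Mettl3 itself had 560, 698 and 612 reads in WT and 462, 669 and 457 in KO, a log2 difference of -0.50 ± 0.14 (SE, n = 3 per group) that was not called (edgeR adjusted p = 0.0134). The deleted part of Mettl3 was not given in the sources used here, so a count over the whole gene does not check the label. By mass spectrometry of poly(A)+ RNA, the study reported that the KO cells had lost most m6A of their mRNA. Markers of the mESC state were present in both groups: Tfcp2l1 averaged 892 CPM (reads scaled to a common library size by TMM) in WT and 595 in KO, and Nanog 679 and 648. Of 12 such markers, 1 was higher and 5 were lower in KO, where 17.1% of all tested genes were called higher and 12.6% lower. The 5 lower were Tdgf1 (903 CPM in WT and 229 in KO), Dppa5a (957 and 298), Utf1 (41.8 and 17.6), Lin28a (149.9 and 80.3) and Tfcp2l1, and Sall4 was higher (263 and 394). The part of this shift in the results on the pathway was not tested. Of 18 markers of feeder fibroblasts, Dcn, Lum, Fap, Prrx1 and S100a4 were at or below 3 reads in every library, while the summed CPM of the list, mostly Vim (113 in WT and 19.8 in KO), was 111 to 154 in WT and 53.8 to 63.7 in KO. Other markers of this list went the other way. Of 8 tested, 2 were higher in KO and 1, Vim, was lower, with a median log2 fold change of 1.00. Acta2, not tested, had 0, 0 and 3 reads in WT and 328, 19 and 7 in KO. The part of such other cells in the results on the pathway was not tested.

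In WT mESCs, 45 exonic m6A sites lay in 4 of the 10 genes. Fgf4 carried 19, Spry2 10, Fgfr1 9 and Etv5 7, each of them in exons of a single gene on its strand. No exonic site was listed for Fgf5, Fgfr2, Dusp6, Dusp4, Spry4 or Etv4. Over all tested genes, 41.4% had at least 1 site, against 4 of the 9 tested members. The classifier read the sequence around each position, so the share of sites at the DRACH motif (A, G or T, then A or G, then AC, then A, C or T) is a property of the method: it was 42 of 45 here (93.3%, 95% Wilson interval 82.1 to 97.7, which covers counting error only) and 92.9% of the whole list.

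Where the sites fell in the transcript differed from gene to gene. Fgf4 had 17 of 19 in the 3′ UTR, and Etv5 had all 7 there. Spry2 had 9 of 10 in the coding sequence and none in the 3′ UTR. Fgfr1 had 3 in each of the 5′ UTR, coding sequence and 3′ UTR. These regions follow the transcript with the longest coding sequence in GENCODE release M21 on GRCm38, while the authors used release M23.

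**Figure D1:**
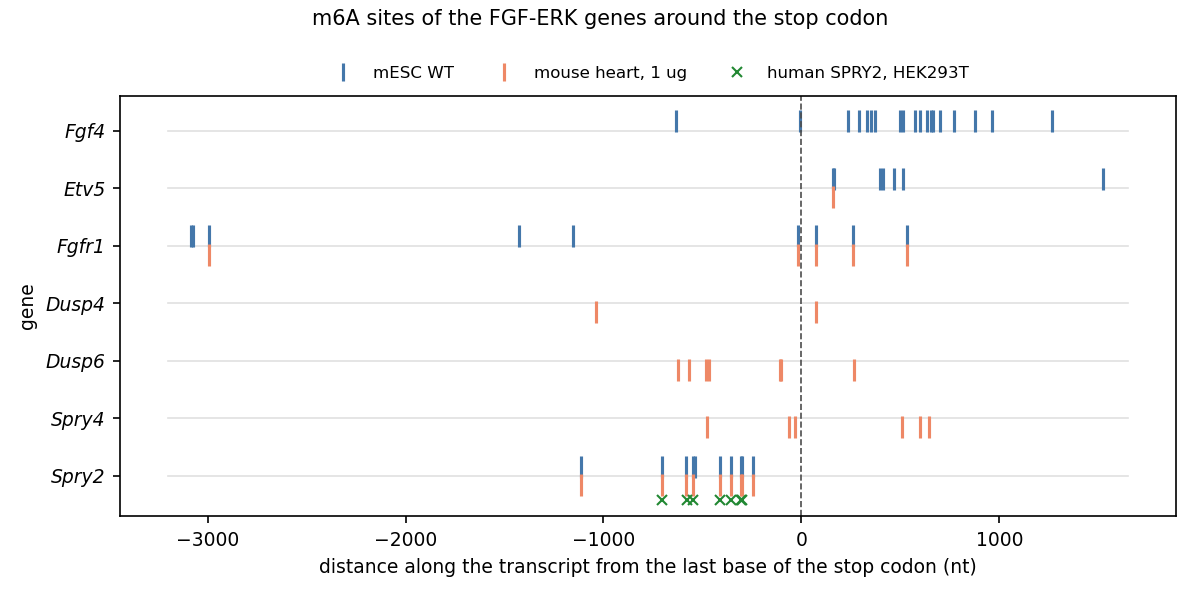
Each tick is 1 m6A site, placed by its distance in nt along the transcript from the last base of the stop codon (dashed line), with WT mESC sites above and 1 ug heart sites below each gene's line and human SPRY2 sites in HEK293T as crosses. Fgf4 and Etv5 sites stood after the stop codon with 2 exceptions in Fgf4, while Spry2 sites stood before it, and 9 of the 10 mESC sites in Spry2 were also in the heart list.

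Spry2, a cytosolic inhibitor of signalling from receptor tyrosine kinases, lies on chromosome 14 (GRCm38, 105891947 to 105896819, minus strand). Its 10 sites gave 4.79 sites per kb of exon, a density above that of 99.6% of tested genes with a site, whose median was 0.598 per kb. Prediction scores, which run from 0.5 to 1 in this list, were between 0.502 and 0.854 in Spry2, with a median of 0.805 against 0.745 over the list. The closest pair of its sites stood 8 nt apart.

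In HEK293T cells the human gene SPRY2 held 7 sites, all in its coding sequence, which at 948 nt is as long as that of mouse Spry2. At 5 of these 7 the distance to the stop codon was the same as that of a mouse site, and at the other 2 it was 3 nt shorter than that of the nearest mouse site. The 5 mouse sites at the shared distances, from -299 to -705 nt, are shown because they were listed in mESCs, in heart and, by position, in human cells. They are written 5′ to 3′ as DNA of the coding strand, with the pentamer around the modified A in capitals, coordinates on GRCm38.
Spry2, chr14:105893092-105893112, minus strand: tgactatgGGACTtgtgtgtg
Spry2, chr14:105893100-105893120, minus strand: aacgtcatTGACTatgggact
Spry2, chr14:105893148-105893168, minus strand: ctgccgtcGGACTggatctgt
Spry2, chr14:105893202-105893222, minus strand: aggtgtgaGGACTgcggcaag
Spry2, chr14:105893498-105893518, minus strand: aacatgaaAGACTccacggtc
The first and second windows overlap, since their sites are the pair 8 nt apart. The mouse scores of these sites ran from 0.794 to 0.831 and those of the human sites at the same distances from 0.503 to 0.827.

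Fgf4, the ligand that mESCs make for themselves, lies on chromosome 7 (GRCm38, 144847367 to 144865243, plus strand). With 19 sites it had more than 99.5% of tested genes with a site, whose median was 3, and its density of 5.95 per kb of exon was above that of 99.8%. The sites ran from -633 nt, in the 5′ UTR, to 1267 nt after the stop codon, and 18 of 19 lay in the last exon. The 3 with the highest scores (0.980, 0.917 and 0.901) and the lowest, a position outside DRACH with a score of 0.503, are given in that order to show the range of sequences in this 3′ UTR.
Fgf4, chr7:144863564-144863584, plus strand: agccactgGAACTttgctttt
Fgf4, chr7:144863443-144863463, plus strand: tgatctttGAACTctcttgca
Fgf4, chr7:144863629-144863649, plus strand: acaactcaAAACTctggggat
Fgf4, chr7:144863503-144863523, plus strand: agacaactTTATAaactcctg
The highest of these scores was above 99.7% of the list, and the lowest stood at its 0.4th percentile. Fgf4 held 2 of the 3 sites of the members that lay outside DRACH.

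Etv5, one of the ETS factors, lies on chromosome 16 (GRCm38, 22381309 to 22439719, minus strand). Its 7 sites gave 1.71 per kb of exon, a density above that of 88.3% of tested genes with a site, and ran from 159 to 1522 nt after the stop codon in the last of 13 exons. The site with the highest score, 0.916, stood 413 nt after the stop codon, and the site nearest to the stop codon, at 159 nt, was the 1 also listed in heart. Both are given in that order.
Etv5, chr16:22383047-22383067, minus strand: cacccataGGACAgtcgataa
Etv5, chr16:22383301-22383321, minus strand: accctttaAGACAaatacctt
The remaining site outside DRACH was 6 nt from the second of these, with a score of 0.573.

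Fgfr1, the FGF receptor with the higher level in mESCs, lies on chromosome 8 (GRCm38, 25513654 to 25575718, plus strand). It had 9 sites, or 0.911 per kb of exon, a density above that of 67.8% of tested genes with a site. They were spread over the transcript from -3086 nt, in exon 1 of 18, to 532 nt after the stop codon. The highest score, 0.961, was that of a coding site in exon 10, and the lowest, 0.528, that of a coding site in exon 8. Of the 5 Fgfr1 sites that heart shared, 1 was in the 5′ UTR and 1 in the coding sequence (at -15 nt), and the others were all 3 sites of the 3′ UTR.

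Most of the pathway's mESC sites were not in the heart list of 1 ug input. Of 45, 15 were at the same nucleotide there (33.3%, Wilson interval 21.4 to 47.9), against 59.7% of all mESC sites in exons of a single gene. The interval covers counting error only and treats the sites as independent, so it does not measure a difference of the pathway. By gene, 9 of 10 Spry2 sites and 5 of 9 Fgfr1 sites were shared, beside 1 of 7 Etv5 sites and 0 of 19 Fgf4 sites. The share of the pathway thus leans on Fgf4, which held 19 of the 45 sites. The difference of the shares was not tested, since sites of 1 gene are not independent and each material had 1 list.

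The heart list held sites in genes that had none in mESCs. Dusp6, which removes the phosphates that activate ERK, had 7 sites in heart, Spry4 had 6 and Dusp4 had 2. With 9 in Spry2, 5 in Fgfr1 and 1 in Etv5, heart had 30 sites in 6 of the 10 genes. For Dusp6, 6 of the 7 lay in the coding sequence. The 2 sites below are given because they were found at both 1 ug and 300 ng.
Dusp6, chr10:99264711-99264731, plus strand: agtgcaacGGACTctgatggc
Dusp6, chr10:99264795-99264815, plus strand: tgtgccaaGGACTcgaccaac
At 300 ng the heart list held 8 sites of the pathway, 4 in Spry2, 3 in Dusp6 and 1 in Fgfr1. The Spry2 site of mESCs that was missing at 1 ug (at -540 nt) was listed at 300 ng. At 100 and 50 ng no site of the pathway was listed (0 in each). The whole list went from 46421 sites at 1 ug to 8845, 1112 and 248. No RNA-seq of heart was analysed here, so a gene without sites and a gene without transcripts cannot be told apart in that tissue. In HEK293T, FGFR1 had 4 sites and DUSP4 had 1, and no site was listed in the other 7 human genes besides SPRY2.

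Levels in mESCs were compared between genes in RPKM, the CPM of a gene divided by its exon length in kilobases. In WT, Fgf4 was the highest at 109 ± 9.02 RPKM (SD, n = 3), followed by Etv5 at 41.6 ± 7.69, Spry2 at 29.6 ± 4.84 and Fgfr1 at 13.8 ± 1.04. The libraries of Etv5 and Spry2 overlapped, and those of the other neighbours among these 4 did not. The rest were at most 2.03 RPKM: Dusp4 at 2.03 ± 0.452, Dusp6 at 1.52 ± 1.08, Etv4 at 0.906 ± 0.861, Spry4 at 0.660 ± 0.652 and Fgfr2 at 0.302 ± 0.0754, where each gene's libraries overlapped those of the next. Fgf5 (GRCm38 chromosome 5, 98254184 to 98277030, plus strand) had 1, 2 and 2 reads in WT and 0, 0 and 1 in KO, so it was at or below 3 reads in every library, was not tested and gets no fold.

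The 4 genes with sites were thus the 4 highest. Among all tested genes with WT levels between those of Fgfr1 and Fgf4 (13.8 to 109 RPKM), 75.5% had a site, and among those at the levels of the 5 tested members without one (0.302 to 2.03 RPKM), 8.21% had. The miCLIP2 signal depends on how much of a transcript there is, so a missing site in Dusp6, Dusp4, Spry4, Etv4 or Fgfr2 does not show that the transcript is unmethylated.

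**Figure D2:**
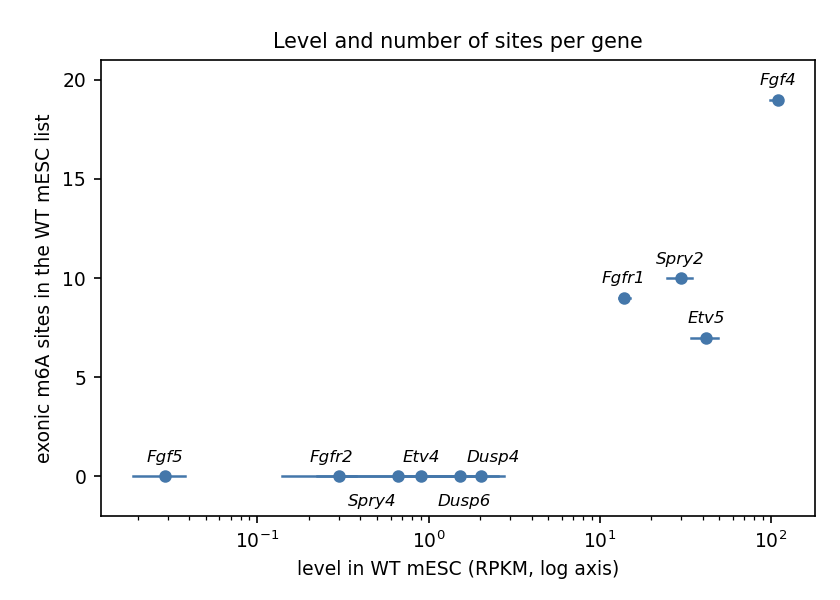
Points give each gene's mean level over 3 WT libraries in RPKM (log axis) against its number of exonic m6A sites in the WT mESC list, and bars span the lowest to the highest library. The 4 genes with sites sat at 13.8 RPKM or more and the 6 without at 2.03 or less.

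The comparison of KO with WT asks which transcripts change in cells without Mettl3. A gene was called at an adjusted p of at most 0.01 by the quasi-likelihood test of edgeR, with p-values adjusted after Benjamini and Hochberg over 15731 tested genes, and "rose" and "fell" are kept for called genes. Fgfr2 rose 6.27-fold and Spry2 fell 2.92-fold in KO. The other 7 tested members were not called. That is 2 of 9, where 29.7% of all tested genes were called, and 1 of 9 in each direction against 17.1% higher and 12.6% lower over all genes. Of the calls over all genes 57.5% were higher in KO, and 71.0% with library size as the only scaling factor. These calls come from a fit that does not pair WT and KO libraries. Pairing by replicate number, seen in correlations in the data and not in a stated batch, was an alternative. With the pair as a block 4 of 9 were called, where 43.5% of all genes were. DESeq2 called 3 of 9 beside 28.6% of all genes, edgeR without WT replicate 3 called 3 beside 33.1%, edgeR with a threshold of 0.05 called 4 beside 46.6%, and edgeR with each gene of at least 1 count kept called 4 beside 20.6%. The median log2 fold change of the 9 was -0.39, against -0.02 over all tested genes.

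**Figure D3:**
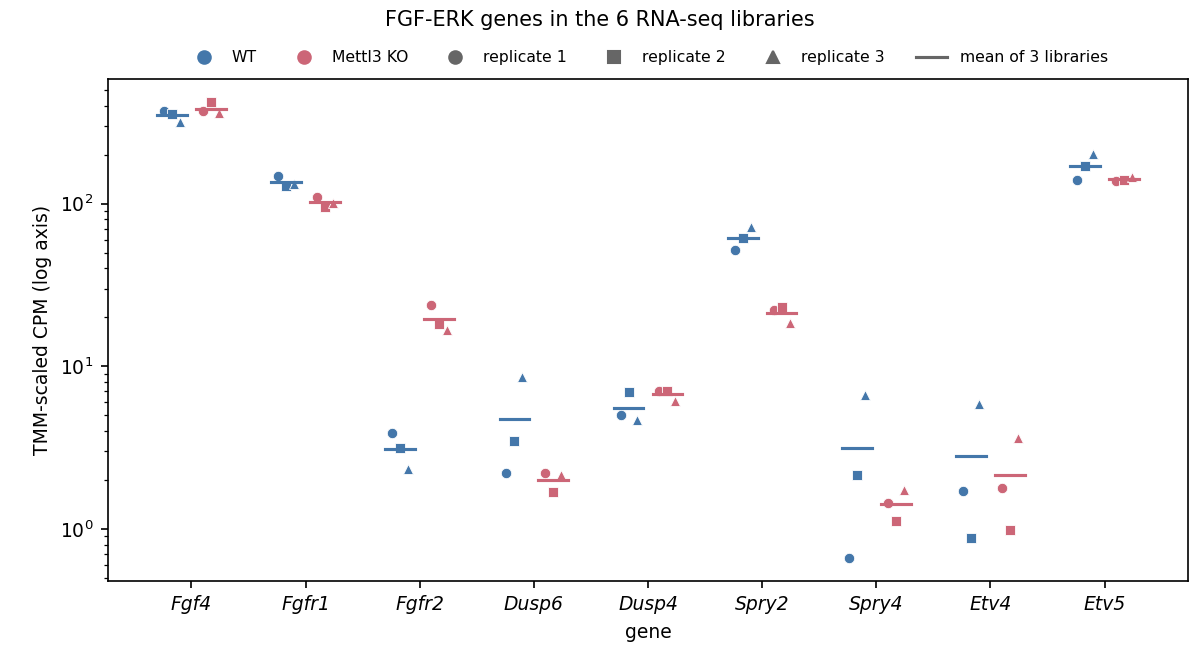
Points are the 6 RNA-seq libraries in TMM-scaled CPM (log axis), with a symbol per replicate number and a bar at the mean of each group; Fgf5 is left out, being at or below 3 reads in each library. Fgfr2 and Spry2 separated fully between WT and KO, and in Dusp6, Spry4 and Etv4 WT replicate 3 stood above the other WT libraries.

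Of the ligands, Fgf4 had 372, 357 and 317 CPM in WT and 370, 422 and 362 in KO. The groups overlapped, with the lowest value in WT replicate 3. The log2 fold change was 0.14 ± 0.12 (SE), with a 95% interval of -0.11 to 0.40 (edgeR adjusted p = 0.336). Under the 14 alternatives its value ran from 0.07 to 0.25 and it was never called. The gene with the most sites of the 10 was therefore not shown to change, and changes of more than 0.40 on the log2 scale lie outside its interval.

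The receptors differed from each other. Fgfr2 (GRCm38 chromosome 7, minus strand), whose isoforms bind FGFs made by neighbouring tissues, had 82, 83 and 49 reads in WT and 600, 535 and 455 in KO, or 3.87, 3.16 and 2.32 CPM against 23.9, 18.1 and 16.8. Every KO library was above every WT library, and the log2 fold change was 2.65 ± 0.22 (edgeR adjusted p = 2.14e-05). It ran from 2.48 to 2.82 under the alternatives and was called in each of the 14. In RPKM, Fgfr2 passed from the 9th of the 10 genes in WT to the 6th in KO, at 1.90 ± 0.365, still below Fgfr1. It had no exonic site. The 15 mESC sites inside its annotated bounds, which 1 long transcript stretches to chr7:130162451-133123350, all lay in exons of other genes on the same strand.

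Fgfr1 had 148, 128 and 132 CPM in WT and 111, 95.4 and 101 in KO. The groups did not overlap, as was the case for 4 of the 9 tested members and 56.1% of all tested genes. The log2 fold change was -0.41 ± 0.11, just outside the threshold (edgeR adjusted p = 0.0101). Blocking on replicate number gave a call (-0.41 ± 0.09, edgeR adjusted p = 0.00119), as it was with DESeq2 (adjusted p = 0.0058) and without WT replicate 3 (edgeR adjusted p = 0.0090). Genes of chromosome 8, where Fgfr1 and Dusp4 both lie, had a median log2 fold change of -0.44 over 829 tested genes, of which 34.6% were called lower. Fgfr1 was 0.03 above that median and Dusp4 0.72 above it. The part of the chromosome in these values was not tested.

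The ERK phosphatases were low and were not called. Dusp6, the phosphatase of cytoplasmic ERK (GRCm38 chromosome 10, 99263231 to 99267489, plus strand), had 2.22, 3.47 and 8.60 CPM in WT and 2.19, 1.69 and 2.14 in KO. The groups did not overlap, but WT replicate 1 and KO replicate 1 nearly met, and WT replicate 3 was 3.88 times WT replicate 1. A ratio between WT libraries that wide was found in 2.14% of the 2615 tested genes within 2-fold of its WT level. The log2 fold change was -1.24 ± 0.44 (edgeR adjusted p = 0.0386). With the replicate block it was called (-1.08 ± 0.30, edgeR adjusted p = 0.00559), and without WT replicate 3 it was -0.51 ± 0.28 (edgeR adjusted p = 0.156). Dusp4, a nuclear phosphatase of ERK (GRCm38 chromosome 8, 34807297 to 34819894, plus strand), had 5.00, 6.97 and 4.68 CPM in WT and 7.00, 7.05 and 6.13 in KO. Its groups overlapped, and its log2 fold change was 0.27 ± 0.21 with an interval of -0.20 to 0.74 (edgeR adjusted p = 0.313).

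Of the Sprouty genes, Spry2 had 1098, 1621 and 1524 reads in WT and 555, 681 and 500 in KO, or 51.8, 61.7 and 72.0 CPM against 22.1, 22.99 and 18.5. Every KO library was below every WT library, and the log2 fold change was -1.55 ± 0.15 (edgeR adjusted p = 3.90e-05). It was called under each of the 14 alternatives, between -1.66 and -1.42. Spry2 was the 1 member with sites that was called, and it fell from 29.6 to 10.2 ± 1.15 RPKM. Among tested genes with at least 7 sites, the fewest of any methylated member, 8.29% were lower and 26.1% higher in KO, with a median log2 fold change of 0.17 over 1049 genes. Among those with no site, 11.2% were lower and 16.9% higher.

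Spry4, the other Sprouty gene (GRCm38 chromosome 18, 38586247 to 38601415, minus strand), had 0.661, 2.13 and 6.62 CPM in WT and 1.43, 1.11 and 1.74 in KO. WT replicate 3 was 10.0 times WT replicate 1, a ratio that 0.08% of 2488 genes of like level reached, and the KO libraries lay within the WT range. Its log2 fold change was -1.13 ± 0.62 (edgeR adjusted p = 0.159) and -0.0011 ± 0.41 without WT replicate 3 (edgeR adjusted p = 0.998).

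The ETS factors were not called. Etv5 had 139, 171 and 202 CPM in WT and 139, 139 and 146 in KO, with the 3 KO libraries close together near the lowest WT library. Its log2 fold change was -0.28 ± 0.13, with an interval of -0.57 to 0.02 (edgeR adjusted p = 0.117). Etv4 (GRCm38 chromosome 11, 101769742 to 101785371, minus strand) had 1.70, 0.876 and 5.86 CPM in WT and 1.79, 0.979 and 3.62 in KO, the highest value of each genotype being in replicate 3. Its log2 fold change was -0.39 ± 0.64 (edgeR adjusted p = 0.643), and it turned to 0.74 ± 0.52 without WT replicate 3 (edgeR adjusted p = 0.258).

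Dusp6, Spry4 and Etv4 were each highest by far in WT replicate 3, and they were the 3 of 9 tested members whose WT libraries differed at least 2-fold, where 16.4% of all tested genes did. Of the 2573 such genes, 762 were highest in WT replicate 3. Without that library, the median log2 fold change of the 9 genes was -0.0011 in place of -0.39, and Fgfr1, Fgfr2 and Spry2 were called. Spry2 and Etv5 were also highest in WT replicate 3 among the WT libraries, by 1.39 and 1.45 times over the lowest, and Fgf4, Fgfr2 and Dusp4 were lowest there.

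**Figure D4:**
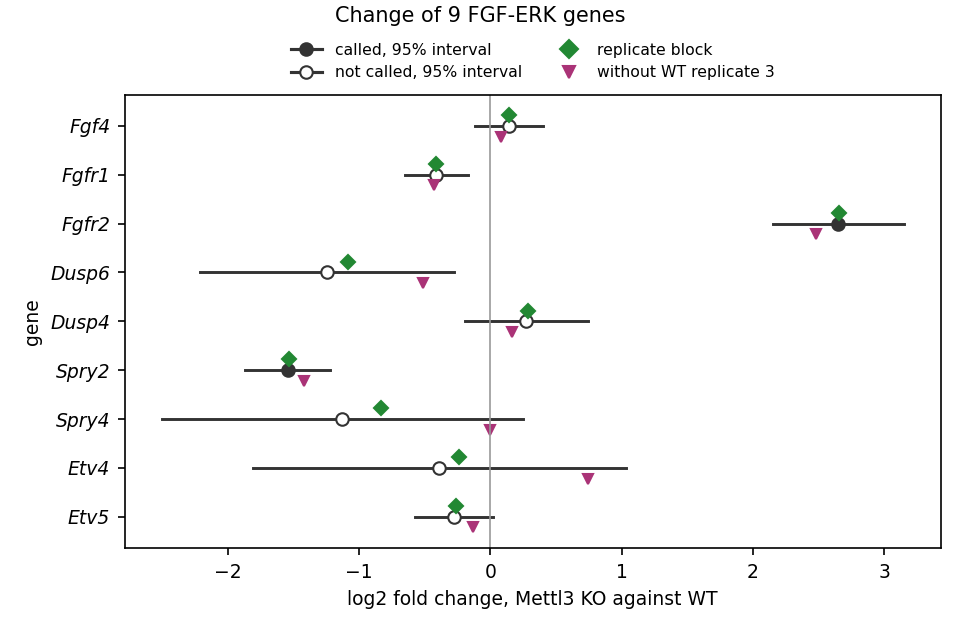
Circles give log2 fold changes of KO against WT from edgeR with 95% intervals, filled where called, beside the values under the replicate block (diamonds) and without WT replicate 3 (triangles). Fgfr2, Spry2 and Fgfr1 kept their place under both alternatives, whereas Dusp6 moved to -0.51, Spry4 to -0.0011 and Etv4 to 0.74 without WT replicate 3.

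The wider pathway was read from 97 further genes, of which 96 were in the tables and 83 were tested. In KO, 20 were higher and 13 lower, and their median log2 fold change was -0.08. The called share of 39.8% stands beside 29.7% of all tested genes. Among 9 tested genes of the FGF family, not all of them ligands, 4 were lower and none higher, where 12.6% and 17.1% of all tested genes were. The 4 were Fgf1 (-3.89 ± 0.29), Fgf10 (-2.52 ± 0.44), Fgf11 (-1.93 ± 0.24), an FGF-like protein that stays within the cell, and Fgf21 (-1.59 ± 0.33), all as log2 fold change with SE. Fgf1 had 97, 146 and 135 reads in WT and 9, 13 and 8 in KO. Fgf1, counted among the 4, passed the filter on low counts only through its WT libraries, so it could only be called lower.

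Receptors, coreceptors and receptor partners went both ways, with 5 of 14 higher and 1 lower, beside 17.1% and 12.6% of all tested genes. The 5 include Flrt3, which was placed in this group after its values were seen. Fgfr3 fell by 2.53 ± 0.33 on the log2 scale while Fgfr2 rose, and Fgfrl1, a receptor without a kinase domain, rose by 1.03 ± 0.18. The Klotho coreceptors of hormone-like FGFs were both higher. Klb rose by 1.89 ± 0.48, from 2, 7 and 5 reads in WT to 11, 26 and 26 in KO. Kl rose from 2, 1 and 2 reads in WT to 21, 61 and 19 in KO, too few in WT for a fold. Klb and Kl passed the filter on low counts only through their KO libraries, so each could only be called higher. Both count among the 5. Hs6st1, which sulphates the heparan chains that FGFs bind, rose by 1.24 ± 0.13, and Flrt3, a membrane protein that binds FGF receptors and promotes their signalling, by 1.79 ± 0.27.

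Of 18 tested negative regulators, 6 were higher and 1 lower, beside 17.1% and 12.6% of all tested genes. The relatives of Dusp6 and Dusp4 that rose were Dusp5 (1.08 ± 0.23), Dusp7 (0.60 ± 0.14), Dusp10 (2.07 ± 0.31) and Dusp16 (1.29 ± 0.11), and Dusp1 fell by 0.74 ± 0.18. Dusp10 and Dusp16 act mainly on the stress kinases JNK and p38. Lrig3 rose by 1.42 ± 0.15 and Rasa1, which switches RAS off, by 0.76 ± 0.10. Spry1 (-0.10 ± 0.14) and the 3 Spred genes, looked up after the values were seen, were not called, and their difference from Spry2 was not tested.

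Inside the cell, Sos2, which loads RAS with GTP, rose by 1.31 ± 0.12. It was 1 of 3 adaptor and exchange genes of 10 tested that were higher, while 2, Gab1 (-0.54 ± 0.11) and Shc1 (-0.63 ± 0.16), were lower. Gab1 lies on chromosome 8, whose tested genes had a median log2 fold change of -0.44, with 34.6% called lower. The part of the chromosome in the value of Gab1 was not tested. Of 16 tested RAS, RAF, MEK, ERK and scaffold genes, 3 were higher and 2 were lower, Lamtor3 (-0.66 ± 0.11) and Rps6ka1 (-0.57 ± 0.10). Of 8 tested ETS factors, 2 were higher and 1 lower. Ets1 rose by 2.41 ± 0.29 and Ets2 by 1.02 ± 0.13, and Elk4 fell by 0.64 ± 0.13. Etv1, the third gene of the Etv4 and Etv5 subfamily, was at -1.71 ± 0.53 and not called (edgeR adjusted p = 0.0227), with its highest value again in WT replicate 3; it was singled out after its values were seen. Of 8 tested target genes, 1 was higher and 2 lower. Each count of this paragraph stands beside 17.1% of all tested genes called higher and 12.6% called lower. The cyclin gene Ccnd1 rose by 1.16 ± 0.22 and the early response gene Egr1 fell by 1.58 ± 0.36. Egr1 had 21, 23 and 21 reads in WT and 5, 13 and 8 in KO. Egr1 passed the filter on low counts only through its WT libraries, so it could only be called lower.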

How the data were processed

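Per the labels and the study's methods, the authors mapped 84-nt stranded single-end reads with STAR 2.6.1b to GRCm38.p6 and deposited raw counts per gene (HTSeq 0.12.4, reverse strand, GENCODE M23). Reads with no gene (unassigned, ambiguous, multimapping or unaligned) were left out. They made up 38.8 to 42.7% of reads in WT and 36.7 to 37.6% in KO, so the genotypes did not overlap in this share. The authors also deposited m6A lists with a score, a m6Aboost probability in mESC and HEK293T; the heart score scale was not given and was not used. The classifier was trained on sites lost in Mettl3 KO. miCLIP2 reads went through STAR 2.7.3a and UMI-tools 1.0.0. Per the study's methods, peaks were called in each replicate and kept where found in more than 1 replicate of a condition. Each condition then came as 1 list. Each heart input had a single library, so its list has no such support between replicates. Read depth per site was not given.

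Counts were fitted in edgeR 4.0.16 (R 4.3.3; filterByExpr, TMM, quasi-likelihood F test, KO against WT, no covariate), tested on simulated data, with Benjamini-Hochberg adjustment over all tested genes and a threshold of 0.01. SE is the log2 fold change over the root of F. RPKM is TMM-scaled CPM per kb of merged exons (GENCODE M21). Sites were joined to exons on their strand (M21, human release 44; the authors used release 31) with pandas 2.3.3; sequence came from GRCm38.p6 with pysam 0.24.0. Intervals of shares are Wilson (statsmodels 0.14.6).

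WT and KO share labelled replicate numbers. Deviations from the group mean correlated at 0.122, 0.464 and 0.303 for same-numbered pairs and from -0.342 to 0.11 for others. Replicate 1, at 0.122, was thus barely above the others. Pairing by number comes from the data and not from a stated batch. The main fit does not pair the libraries, and the replicate block was an alternative. Libraries of a group had a chi-square per degree of freedom of 8.71 to 102, above sampling noise, so none was a duplicate.

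The members and all lists were chosen with earlier results of these data known. Named were Mettl3, the members, called FGF, FGFR, Sprouty, Spred, dual-specificity phosphatase and ETV relatives, other called pathway genes changed at least 2-fold, the 2 genes of each marker list with the highest mean CPM over all 6 libraries (for mESC identity, others were higher within a genotype) and those at or below 3 reads, and every mESC site of the members, of which those that carry the results are printed. The other called markers, Acta2, Rasa1, Gab1, Shc1, Lamtor3, Rps6ka1 and Elk4 were named after their values were seen. Flrt3 was moved, also after its values were seen, from the negative regulators to the receptor partners for its known role. DESeq2 1.42.0, other scalings, filters and thresholds, the replicate block and left-out libraries were the alternatives.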

Additional observations from a re-analysis of the deposited data

How the results depend on the processing

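The calls of Fgfr2 and Spry2 held under all 14 alternatives, and Fgf4, Dusp4, Etv4 and Etv5 were called under none. Members called rose from 2 to 4 with all genes of at least 1 count kept (adding Dusp6 at -1.20 and Spry4 at -1.09), at an adjusted p of 0.05 (adding Fgfr1 at -0.41 and Dusp6 at -1.24) and with the replicate block (adding Fgfr1 at -0.41 and Dusp6 at -1.08); the block changed no other member's call. It raised the count over all genes from 4669 to 6837 and of other pathway genes from 33 to 48. DESeq2 added Fgfr1 (-0.41). All genes called came to 7336 at an adjusted p of 0.05. Leaving out 1 library gave 2761 to 5412 calls over all genes and 19 to 32 among other pathway genes. The lowest counts came without KO replicate 1 (2761 and 20), KO replicate 3 (3109 and 19) and WT replicate 1 (3108 and 20), and 3042 genes were called without replicate 2 of both groups. It moved Fgfr1 between -0.47 and -0.35, with a call without WT replicate 3, and Etv4 between -1.01 and 0.74, the latter without WT replicate 3. The members' median ran from -0.46 to -0.0011, the last without WT replicate 3. The causes were not tested, beyond fewer libraries. With library size as the only scaling factor, the median over all genes moved by 0.10 and the split of calls from 57.5% to 71.0% higher (2937 higher and 1199 lower), which changed no member's call or direction. Sites of the members numbered 29 with a score at or above the list's median and 60 anywhere in the gene body; 5 of the 45 were in the 300 ng heart list. Sites of weakly expressed genes are limited by read depth, and levels near 1 CPM by counting.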

Other observations

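Markers of other states moved in both directions, beside 17.1% of all tested genes higher and 12.6% lower in KO. Of 10 tested primed epiblast markers, 1 was higher and 2 were lower. Lef1 fell by 3.52 ± 0.26 and Otx2 by 1.05 ± 0.27 on the log2 scale. Foxa2 rose from 1, 1 and 2 reads in WT to 36, 18 and 30 in KO, too few in WT for a fold. Foxa2 passed the filter on low counts only through its KO libraries, so it could only be called higher. Dnmt3a averaged 72.2 CPM in WT and 67.2 in KO and Dnmt3b 51.0 and 52.5, while Cer1 had 0 reads in every library. Of 10 tested primitive endoderm markers, 2 were higher and 2 lower. Dab2, an endocytic adaptor, had 22, 26 and 23 reads in WT and 1011, 1058 and 750 in KO, a log2 rise of 5.05 ± 0.20, and Col4a1 rose by 0.81 ± 0.14. Gata4 fell by 1.59 ± 0.31 and Lama1, a laminin chain, by 0.78 ± 0.13, and Sparc averaged 344 CPM in WT and 300 in KO.

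Of 5 tested neural markers, 2 were higher and none lower. Olig2, a transcription factor of oligodendrocyte and motor neuron precursors, rose from 0, 1 and 0 reads in WT to 236, 304 and 232 in KO. Olig2 passed the filter on low counts only through its KO libraries, so it could only be called higher. Map2 rose by 1.59 ± 0.28. Tubb3 averaged 38.8 CPM in WT and 48.5 in KO and Nes 43.3 and 33.4, neither of them called, and Neurog2, Hes5 and Pax3 were at or below 3 reads in each library. Of 8 tested fibroblast markers, 2 were higher and 1, Vim, was lower. Col5a2 rose by 4.17 ± 0.33, from 10, 6 and 6 reads to 175, 166 and 139, and Thy1 by 1.19 ± 0.23. Col5a2 passed the filter on low counts only through its KO libraries, so it could only be called higher. Col5a1, second to Vim in mean CPM over all 6 libraries, averaged 13.3 CPM in WT and 7.80 in KO and was not called.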
